A study of Mus musculus with 4 samples.

Results

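The genes described here are the expressed Zfp genes of mouse erythroleukemia cells: every row of the gene table whose symbol begins with Zfp and a digit and whose mean over both wild-type libraries was at least 1 FPKM (fragments mapped to a gene, scaled by transcript length and library size). This gave 229 genes of the 331 rows with such a symbol and of 17393 rows in all. The cells are DS19, a line of mouse erythroleukemia (MEL) cells, which are virus-transformed erythroid precursors that can be driven towards red cells in culture. RNA depleted of ribosomal RNA was sequenced from wild-type cells (2 libraries) and from cells with a knockout of Wdr26 (2 libraries), a subunit of the CTLH ubiquitin ligase complex. The growth protocol, which the labels give in the same words for both genotypes, names 1.5% DMSO as the agent that induces differentiation, and no label says whether or for how long a given library was induced. No label says whether the knockout is 1 clone or a pool, nor whether libraries 1 and 2 are separate cultures. The p-values below therefore measure only how far these samples lie apart, which can be technical spread.

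Zfp is the mouse symbol for zinc finger protein, and most such proteins carry C2H2 fingers, in which a pair of cysteines and a pair of histidines hold a zinc ion and the short helix between them reads DNA. Many also carry a KRAB box, a domain that recruits the corepressor Trim28 and with it the histone methyltransferase Setdb1, which places repressive histone methylation on target loci such as retroviral and transposon sequences. The symbol also covers genes of other kinds, among them the CCCH proteins of the Zfp36 family, which bind AU-rich messenger RNAs and bring them to deadenylation.

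The classes can be seen in the coding sequences of single fingers, read from GENCODE M21 transcripts on GRCm38 (mm10) and shown 5′ to 3′ on the coding strand, with the codons of the zinc-binding cysteines and histidines in capitals. Zfp809 (chromosome 9, 22225667 to 22254117) is shown as an abundant KRAB member, known as a protein that silences murine leukemia proviruses. Zfp358 (chromosome 8, 3493138 to 3497208) and Zfp882 (chromosome 8, 71908606 to 71918851) are shown because they had the smallest p-values among the members. Zfp36l1 (chromosome 12, 80107760 to 80113013) shows the CCCH form, with 3 cysteines and 1 histidine.

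Zfp809: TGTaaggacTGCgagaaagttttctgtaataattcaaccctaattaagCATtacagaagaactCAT
Zfp358: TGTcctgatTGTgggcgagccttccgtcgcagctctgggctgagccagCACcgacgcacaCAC
Zfp882: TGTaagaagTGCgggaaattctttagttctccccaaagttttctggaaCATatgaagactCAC
Zfp36l1: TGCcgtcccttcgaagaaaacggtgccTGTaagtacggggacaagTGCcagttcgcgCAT

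These stretches encode residues 157 to 178 of Zfp809, 156 to 176 of Zfp358, 86 to 106 of Zfp882 and 120 to 139 of Zfp36l1. A coding sequence was matched for 228 of the 229 members, and 221 of them held at least 1 C2H2 pattern, with a median of 9 per member and the most, 36, in Zfp142. The 7 members with 0 C2H2 patterns were Zfp36, Zfp36l1, Zfp36l2, Zfp185, Zfp330, Zfp703 and Zfp839. A KRAB-box pattern was found in 99 members and not in 129, and Zfp783 had no coding sequence matched. The pattern is a run of letters in 1 translated transcript per gene, so members without it may still carry a KRAB box.

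The targeted gene followed the labels. Wdr26 had wild-type values of 55.39 and 52.41 FPKM and knockout values of 9 and 7.84 FPKM, or -2.55 on the log2 scale (SE 0.14, limma adjusted p = 0.0063). All 9 erythroid markers were at 1 FPKM or more in every library, and their sum, mostly globin, ranged from 152620 to 206943 FPKM. Some of them differed between genotypes in value: Slc4a1, the anion exchanger, had 436.06 and 284.78 FPKM in wild type against 48.58 and 6.7 in the knockout (limma adjusted p = 0.166), and Tfrc, the transferrin receptor, had 530.94 and 397.11 against 314.14 and 186.58 (limma adjusted p = 0.313). Their part in the members' values was not tested. In contrast, 0 of 6 myeloid and 0 of 2 fibroblast markers in the table reached that level in all libraries, and their sums ranged over the 4 libraries from 0.42 to 0.98 and from 0.21 to 0.61 FPKM. Elane was listed at 0 throughout. Of 5 megakaryocyte markers 3 reached it, and their sum ranged from 247 to 301 FPKM. Together the 229 members made up between 0.316% and 0.369% of the summed FPKM of a library, beside 19.2% to 25.1% for the globin gene Hba-a1. In bulk RNA, fewer cells of a type and less RNA per cell cannot be told apart.

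Most members were present at low levels. The median wild-type mean was 5.38 FPKM, against 11.2 FPKM over the 10670 genes tested (at least 1 FPKM in at least 2 libraries), and 119 members reached 5 FPKM and 20 members reached 20 FPKM. The members were chosen by their wild-type FPKM, so these levels are a description, and the same wild-type values form 1 side of the comparison below. At the threshold, Zfp719 (1.30 and 0.71 FPKM in wild type, 1.41 and 0.76 in the knockout) and Zfp128 (1.13 and 0.89, then 1.15 and 1.35) lay just inside. Zfp52 (1.03 and 0.94, then 1.12 and 1.6) and Zfp90 (1.31 and 0.67, then 1.48 and 1.56) lay just outside. Of the 102 Zfp rows left out, 10 were listed at 0 in all libraries and 10 had a knockout mean of at least 1 FPKM, while 2 members had a knockout mean under it. All 229 members were among the genes tested.

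The most abundant member was Zfp36l2, a CCCH decay factor known to be needed for the self-renewal of early erythroid progenitors. It had wild-type values of 244.59 and 254.37 FPKM and knockout values of 223.58 and 219.61 FPKM. Both knockout libraries lay below both wild-type ones, and the log2 change was -0.17 (SE 0.13, limma adjusted p = 0.718). Zfp207, which binds microtubules and the kinetochore, followed with wild-type values of 116.06 and 77.37 FPKM and knockout values of 94.94 and 58.31 FPKM, groups that overlapped. Zfp664 had wild-type values of 61.49 and 67.46 FPKM and knockout values of 62.45 and 73.52 FPKM. Zfp809 had wild-type values of 63.46 and 55.06 FPKM and knockout values of 62.31 and 62.53 FPKM. For both genes the genotypes overlapped. Zfp106, an RNA-binding protein, had wild-type values of 34.68 and 34.77 FPKM and knockout values of 33.58 and 37.29 FPKM, and Zfp385a is described with the largest differences below.

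Knockout and wild type were compared gene by gene with limma on log2(FPKM + 1), with p-values adjusted over all 10670 genes. No member passed an adjusted p of 0.05 (0 of 229, against 0.0937% of all genes tested), and the smallest adjusted p of a member was 0.215, for Zfp358. Without knockout library 1 there were 4, Zfp358, Zfp467, Zfp882 and Zfp207 (limma adjusted p = 0.027, 2.47e-05, 0.0423 and 0.0119), among 6.92% of all genes tested. At an unadjusted p under 0.05 limma gave 11 members, 9 higher and 2 lower in the knockout, of 229 members, against 11.4% of all genes tested. An exact permutation test of 2 libraries against 2 cannot give a p below 0.333, and none was run on single genes.

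The members' differences were narrower in spread than those of all genes tested, between genotypes and between libraries of 1 genotype, which was not tested. Their median log2 change was 0.04, with an interquartile range of 0.23, against a median of 0.07 and an interquartile range of 0.28 over all genes tested, and the extremes were -0.64 and 0.78. The added 1 FPKM narrows the differences of low genes, and the members lay at lower levels. With a pseudocount of 0.1 in its place, the interquartile ranges were 0.275 for the members and 0.319 for all genes tested. The level above 0 depends on the scaling: the members' median was -0.04 after median-centring, -0.03 after quantile normalization and 0.001 with the globin genes left out, each time below the median of all genes tested. Between single libraries the standard deviation of members' log2 differences was 0.188 within wild type and 0.227 within the knockout, and it was 0.227, 0.215, 0.286 and 0.234 between wild type and knockout (libraries 1 and 1, 2 and 2, 1 and 2, and 2 and 1). Over all genes tested the same values were 0.268 and 0.36 within a genotype and 0.312, 0.333, 0.442 and 0.36 between genotypes, so the members were narrower within a genotype too.

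**Figure D1:**
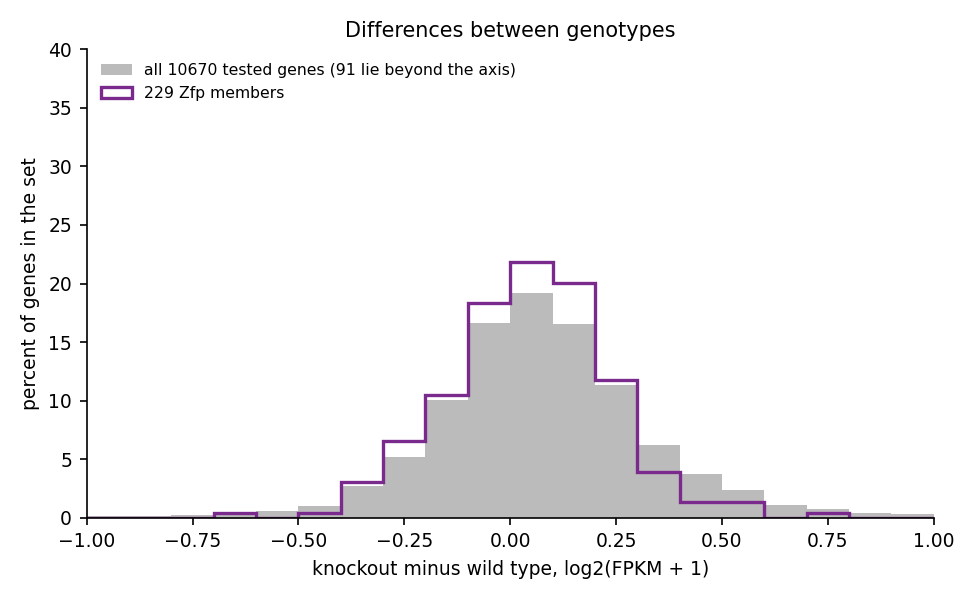
Differences between genotypes on the log2(FPKM + 1) scale (x axis) for the 229 Zfp members (line) and all 10670 tested genes (grey bars), as the percent of each set per bin of 0.1 (y axis). The members form the narrower distribution, and 91 tested genes, none of them members, lie beyond 1 in either direction.

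In 64 members, or 27.9%, both knockout values exceeded both wild-type values, against 29.9% of all genes tested, and in 29 members, or 12.7%, both lay below them, against 10.8%. After median-centring these counts became 34 and 58 members (19.9% and 20.1% of all genes tested), so the split between higher and lower turned with the scaling. By size, 7 of 229 members were at least 1.5-fold higher in the knockout, against 6.19% of all genes tested, and 1 of 229 was at least 1.5-fold lower, against 2.08%.

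Of the members higher in both knockout libraries, Zfp467, a regulator of adipocyte and osteoblast fate, had the largest difference. Zfp467 had wild-type values of 2.88 and 4.29 FPKM and knockout values of 4.75 and 9.52 FPKM. The groups were apart, but the knockout libraries differed from each other by more than the genotype means did. The log2 change was 0.78 (SE 0.31, limma adjusted p = 0.428), and leaving out knockout library 2 gave 0.34, leaving out library 1 gave 1.22 (limma adjusted p = 0.62 and 2.47e-05).

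Zfp358 had the smallest p-value of the members. Its 2 wild-type libraries had the same value, 14.62 FPKM, and its knockout libraries stood at 21.40 and 23.42 FPKM. The log2 change was 0.58 (SE 0.13, limma adjusted p = 0.215), a ratio of means of 1.53. Zfp324 was tighter still, at a lower level, with wild-type values of 2.37 and 2.36 FPKM and knockout values of 3.67 and 3.70 FPKM (log2 change 0.48, SE 0.15, limma adjusted p = 0.329).

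Zfp385a, also known as Hzf, a zinc finger protein with roles in megakaryocytes and in the p53 response, was the only one of the 8 largest upward differences with a wild-type mean above 20 FPKM. It had wild-type values of 52.60 and 66.46 FPKM and knockout values of 82.64 and 77.06 FPKM. All knockout values lay above all wild-type values, and the difference was 0.43 on the log2 scale (SE 0.16, limma adjusted p = 0.395). Zfp647 had wild-type values of 1.30 and 1.35 FPKM and knockout values of 2.19 and 2.41 FPKM, and Zfp169 had 4.04 and 3.25, then 5.38 and 5.74 FPKM. Zfp185, whose product is an actin-associated LIM-domain protein, had 1.26 and 1.44, then 1.88 and 2.37 FPKM. Zfp296, expressed in pluripotent cells, had 1.67 and 1.26, then 1.97 and 2.53 FPKM. These last 4 were low-level genes, with limma adjusted p between 0.337 and 0.512.

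Zfp882 had the largest downward difference, with wild-type values of 5.22 and 4.47 FPKM and knockout values of 3.03 and 2.50 FPKM. The groups were apart, and the log2 change was -0.64 (SE 0.17, limma adjusted p = 0.261). Its annotated exons overlap those of Zfp617, so reads of these genes may not be separable. The strands of the overlapping exons were not compared, and the sources used here do not say whether strand was kept. Zfp617 was also lower in both knockout libraries (17.55 and 16.28, then 13.2 and 15.67 FPKM), and 44.0% of the 50-base stretches of its transcript occur in other genes. Zfp653, a transcriptional corepressor, had wild-type values of 27.75 and 26.29 FPKM and knockout values of 20.83 and 17.78 FPKM, or -0.47 on the log2 scale (SE 0.14, limma adjusted p = 0.313). Of the 50-base stretches of its transcript, 22.9% also occur in transcripts of other genes, and it overlaps Gm16845, so its level is uncertain.

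The other 6 of the 8 largest downward differences among members whose groups do not overlap lay between -0.32 and -0.36, in genes with a KRAB-box pattern. Zfp207, given above, had -0.34 with overlapping groups and 0.002 without knockout library 2. Zfp560 had wild-type values of 11.92 and 12.09 FPKM and knockout values of 8.22 and 10.16 FPKM, and Zfp317 had 32.01 and 25.97, then 22.68 and 22.56 FPKM. Zfp26 had 8.83 and 7.29, then 6.12 and 6.26 FPKM, and Zfp599 had 6.60 and 7.68, then 4.57 and 6.40 FPKM. Zfp729a had 5.37 and 4.72, then 3.62 and 3.99 FPKM, and Zfp874b had 5.24 and 4.49, then 3.62 and 3.76 FPKM. In each of the 6 both knockout values lay below both wild-type values, and the limma adjusted p lay between 0.460 and 0.589.

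**Figure D2:**
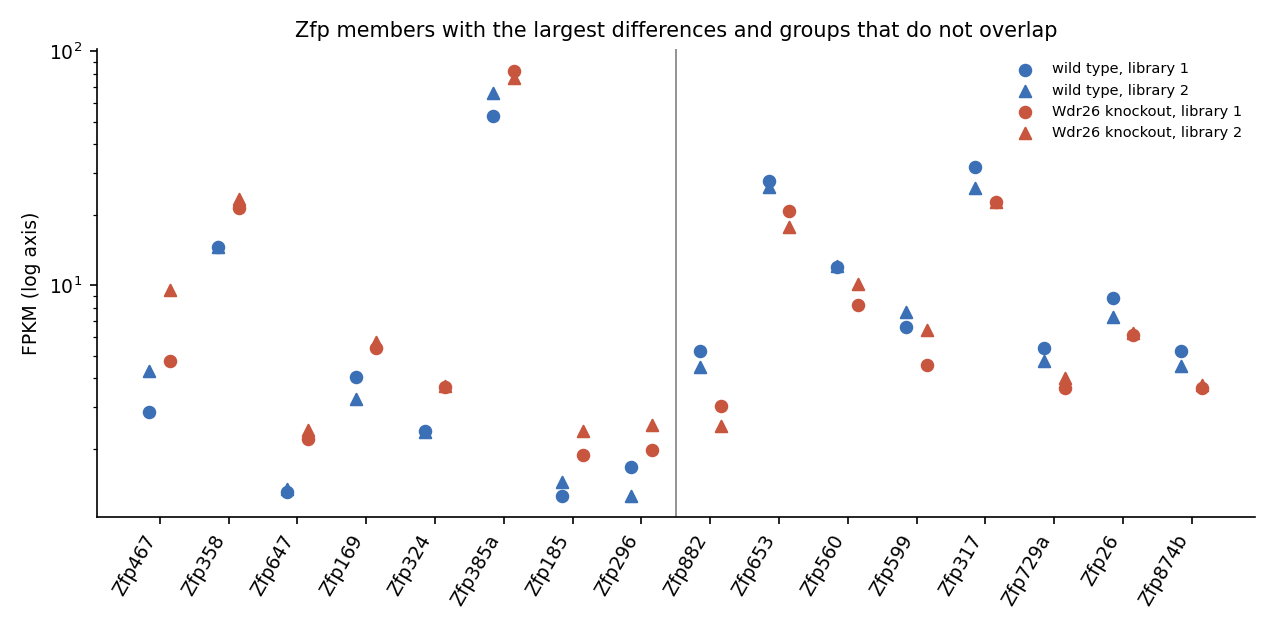
FPKM (log axis) in each library for the 8 members with the largest upward difference (left of the line) and the 8 with the largest downward one (right of the line) among members whose groups do not overlap. Circles are libraries numbered 1 and triangles those numbered 2, and Zfp324 shows the tightest groups while the knockout values of Zfp467 lie far apart.

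The promoters of Zfp358 and Zfp882, the members with the smallest p-values, are shown as examples of a start with many CpG and a start with fewer. They run from 250 bases before to 50 bases after the annotated start, from RefSeq on GRCm38.p6, 5′ to 3′ on the gene's strand, and capitals mark matches to the motifs searched. The Zfp358 window is chr8:3492888-3493187 on the plus strand and holds 31 CpG, 2 GC boxes and 1 match to ACTACAA. The Zfp882 window is chr8:71908356-71908655 on the plus strand and holds 10 CpG and 1 match to AGATAA. Its CpG number lies below the members' median of 16 and above the median of 7 over all promoters. The windows of Zfp467, with 18 CpG, and Zfp653, with 22, do not show the same order by direction.

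Zfp358: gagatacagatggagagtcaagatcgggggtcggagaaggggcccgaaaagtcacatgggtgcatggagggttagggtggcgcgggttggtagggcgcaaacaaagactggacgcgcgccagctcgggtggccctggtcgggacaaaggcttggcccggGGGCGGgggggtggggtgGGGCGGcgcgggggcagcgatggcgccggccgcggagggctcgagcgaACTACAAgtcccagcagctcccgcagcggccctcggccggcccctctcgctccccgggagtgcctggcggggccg
Zfp882: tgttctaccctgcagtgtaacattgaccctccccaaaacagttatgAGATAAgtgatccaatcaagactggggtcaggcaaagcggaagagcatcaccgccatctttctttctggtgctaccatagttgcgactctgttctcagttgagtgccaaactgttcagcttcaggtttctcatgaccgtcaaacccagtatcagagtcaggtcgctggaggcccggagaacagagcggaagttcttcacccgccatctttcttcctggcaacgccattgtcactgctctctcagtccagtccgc

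A promoter was given for 191 of the 229 members. On either strand, GGGCGG, the GC box, occurred in 50.8% of them against 35.9% of all 27025 promoters of that length. AGATAA, a form of the GATA motif, occurred in 6.81% against 11.4%, TATAAA in 5.24% against 14.2%, and ACTACAA, part of the Znf143 motif, in 5.76% against 3.45%. The median number of CpG per 300 bases was 16 in the members and 7 in all promoters. The members were chosen by expression, while all promoters include those of genes not expressed in these cells. These contrasts therefore cannot be told apart from a difference between expressed genes and all genes. A match is a run of letters and not a binding site.

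Members with a KRAB-box pattern were present at lower levels than the rest, with a median wild-type mean of 3.19 FPKM against 8.12 FPKM, and carried more fingers, with a median of 12 against 7. Their median log2 change was 0.02, against 0.07 in members without the pattern, and both medians were below 0 after median-centring and after quantile normalization. Among the 120 members with a mean of at least 5 FPKM over all libraries the order was reversed, with 0.102 against 0.0833. Higher in both knockout libraries were 22 of the 99 KRAB members (22.2%), and 19 (19.2%) were lower in both. Without the pattern, 42 of 129 (32.6%) were higher in both and 10 (7.75%) were lower in both, beside 29.9% and 10.8% of all genes tested. The difference between these classes was not tested, and level and finger number differ between them too. By limma, 6 of the 129 members without the pattern and 5 of the 99 with it had an unadjusted p under 0.05, against 11.4% of all genes tested, and 0 of either passed after adjustment.

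**Figure D3:**
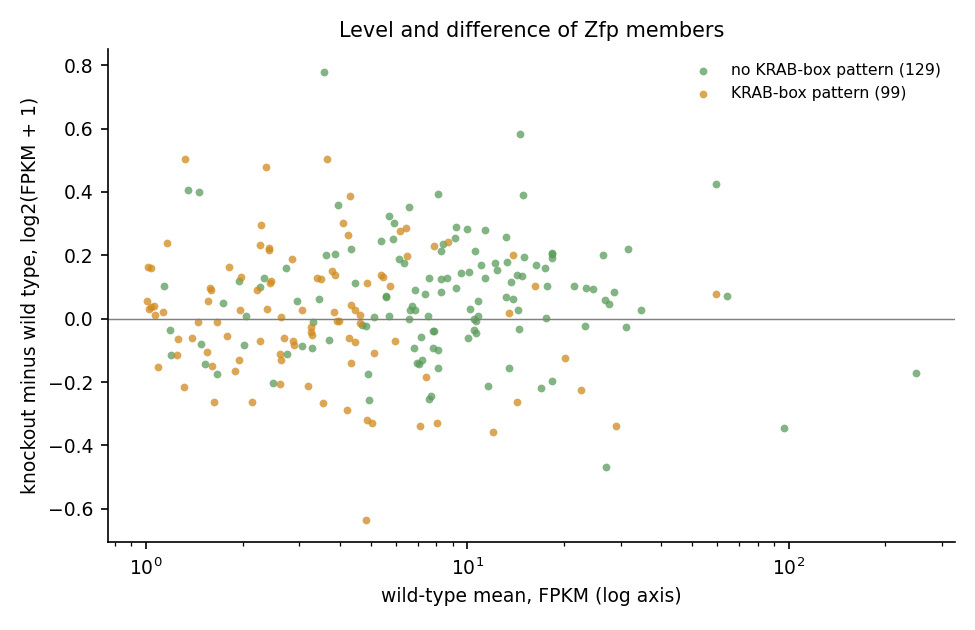
Wild-type mean in FPKM (log x axis) against the knockout minus wild-type difference on the log2(FPKM + 1) scale (y axis) for 99 members with a KRAB-box pattern and 129 without it. The KRAB members lie mainly at low levels and spread to both sides of 0.

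The corepressors that KRAB proteins work through were all expressed. Of the 20 corepressor genes in the list, 0 passed the limma adjusted threshold and 1, Chd3, had an unadjusted p under 0.05 (11.4% of all genes tested did). In 7 of 20 both knockout values lay above wild type and in 3 of 20 below, beside 29.9% and 10.8% of all genes tested, and the median log2 change was 0.04. Trim28, the scaffold that binds the KRAB box, had wild-type values of 98.31 and 88.47 FPKM and knockout values of 109.66 and 90.72 FPKM. Setdb1, the histone methyltransferase, had 49.52 and 44.53, then 59.39 and 56.16 FPKM, groups that were apart (log2 change 0.29, SE 0.13, limma adjusted p = 0.487). Chd4, the NuRD remodeller, had 88.35 and 85.57, then 105.8 and 96.68 FPKM, also apart (0.22, limma adjusted p = 0.617). Dnmt1, the maintenance DNA methyltransferase, had 115.92 and 71.88, then 101.53 and 57.92 FPKM, and there the library number separated the values more than the genotype did.

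Other members are known for work on RNA, on proteins or as DNA-binding regulators. In these lists 0 members passed the limma adjusted threshold or an unadjusted p of 0.05, against 0.0937% and 11.4% of all genes tested. Of the 3 expressed CCCH decay factors, Zfp36l2 is given above. Zfp36 had wild-type values of 8.59 and 9.87 FPKM and knockout values of 9.47 and 10.39 FPKM, and Zfp36l1 had 6.19 and 8.84, then 5.64 and 9.79 FPKM. Both overlapped between genotypes.

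Among the 10 RNA and ribosome factors, 1 (10.0%) was higher and 0 were lower in both knockout libraries, beside 29.9% and 10.8% of all genes tested, and the median log2 change was 0.01. The 1 was Zfp346, a binder of double-stranded RNA, with wild-type values of 17.82 and 18.88 FPKM and knockout values of 19.71 and 23.06 FPKM (0.21, limma adjusted p = 0.675). Zfp598, the ubiquitin ligase that marks collided ribosomes, had 28.15 and 24.72, then 33.76 and 27.48 FPKM. Zfp622, which acts in maturation of the large ribosomal subunit, had 23.36 and 25.89, then 25.83 and 26.80 FPKM. Zfp638 (7.73 and 6.16, then 6.22 and 6.12 FPKM) and Zfp830 (10.44 and 10.80, then 10.25 and 10.88 FPKM), both linked to splicing, also overlapped. Of the other ligases, Zfp451, for SUMO, had 9.37 and 7.93, then 9.06 and 10.00 FPKM, and Zfp91, for ubiquitin, had 24.23 and 22.16, then 22.59 and 23.01 FPKM.

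Of the 18 expressed DNA-binding regulators in the list of 25, 8 (44.4%) had both knockout values above wild type and 3 (16.7%) below, beside 29.9% and 10.8% of all genes tested. Their median log2 change was 0.08, and 0 passed either limma threshold, adjusted or unadjusted, against 0.0937% and 11.4% of all genes tested. Zfp703, a transcriptional corepressor, had wild-type values of 9.74 and 10.15 FPKM and knockout values of 11.99 and 12.67 FPKM (0.28, SE 0.13, limma adjusted p = 0.503). Zfp592 had 11.91 and 10.83, then 14.45 and 13.60 FPKM (0.28, limma adjusted p = 0.523). Zfp219 (30.04 and 32.98, then 35.42 and 38.36 FPKM) and Zfp335 (18.98 and 17.56, then 20.99 and 20.98 FPKM), which is needed for T cell and brain development, were also apart by less.

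In the other direction, Zfp281, a regulator of pluripotency, had wild-type values of 7.87 and 7.52 FPKM and knockout values of 6.48 and 6.20 FPKM (-0.24, SE 0.14, limma adjusted p = 0.592), and Zfp292 had 12.18 and 11.02, then 9.11 and 10.69 FPKM. Zfp143, which binds many promoters and takes part in chromatin looping, had 9.10 and 7.11, then 7.06 and 7.20 FPKM, with groups that overlapped. Zfp148 had 7.20 and 5.91, then 6.10 and 6.96 FPKM, a log2 change of -0.002. Zfp384 (26.53 and 20.27, then 27.71 and 22.31 FPKM), Zfp687 (31.61 and 30.69, then 32.78 and 28.57 FPKM) and Zfp263 (10.85 and 9.28, then 9.29 and 9.86 FPKM) overlapped too.

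Finger genes of related families, taken by symbol, also had 0 genes past the limma adjusted threshold, against 0.0937% of all genes tested. The median log2 change was 0.03 over 36 Zbtb genes, 0.12 over 15 Zscan and Zkscan genes and 0.02 over 9 Klf genes. At an unadjusted p under 0.05 limma gave 3 of 36, 1 of 15 and 0 of 9 (8.33%, 6.67% and 0%), against 11.4% of all genes tested.

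Zfp genes lie in clusters that arose by duplication, and 120 of the 229 members were on chromosomes 7, 13, 17 and 8, with 56 on chromosome 7 alone. Joining members less than 1 Mb apart gave 14 clusters of at least 5 members. The lowest median was on chromosome 9 (19622038 to 20605404, mm10), where all 6 members, Zfp26, Zfp266, Zfp317, Zfp426, Zfp560 and Zfp846, had a log2 change below 0. Its median was -0.28, and 4 of the 6 were lower in both knockout libraries, beside 10.8% of all genes tested. It stayed below 0 under all 3 other scalings. These also lowered the median of all genes tested, from 0.0674 to -0.00945, -0.00701 and 0.0155, so this adds no support. The cluster was singled out as the lowest of the 14 and not tested. Zfp426 had wild-type values of 23.61 and 21.61 FPKM and knockout values of 17.07 and 21.52 FPKM, and Zfp266 had 21.29 and 19.01, then 16.81 and 20.10 FPKM, which overlapped.

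Zfp653 and Zfp599 lie further along the same chromosome, so 5 of the 8 largest downward differences came from the stretch between 19622038 and 22259895. This stretch was chosen after the values were seen and was not tested. In it 8 of 9 members were below 0, with Zfp809 the exception at 0.08, and 6 were lower in both knockout libraries. The 52 other tested genes there had a median of -0.15, with 37 below 0 and 16 lower in both, so values below 0 were frequent there among genes that are not Zfp genes too. Over all genes tested, 4010 of 10670 were below 0 and 10.8% were lower in both.

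Clusters with values above 0 lay on chromosomes 15, 7 and 6. Over all genes tested, 6660 of 10670 were above 0 as well, with a median of 0.07, and 5136 were after median-centring. On chromosome 15 (75615200 to 76925693) 5 of 6 members were above 0, with a median of 0.30, and 33 of the 44 other tested genes in that window were above 0, with a median of 0.12. On chromosome 7 (6131489 to 7209998) 5 of 5 were above 0, with a median of 0.29, and 4 of 5 after median-centring. Also on chromosome 7 (127233061 to 127885996) 9 of 9 were above 0, with a median of 0.13, but 6 of 9 after median-centring. In a further cluster on chromosome 7 (29768552 to 30169775) 9 of 10 were above 0, with a median of 0.13, and 6 of 10 after median-centring. The exception there was Zfp568, a KRAB protein known to silence a placental transcript of Igf2, with wild-type values of 4.84 and 3.81 FPKM and knockout values of 4.62 and 3.12 FPKM. On chromosome 6 (47835633 to 48445992), the cluster that holds Zfp467, 7 of 8 were above 0 with a median of 0.15.

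**Figure D4:**
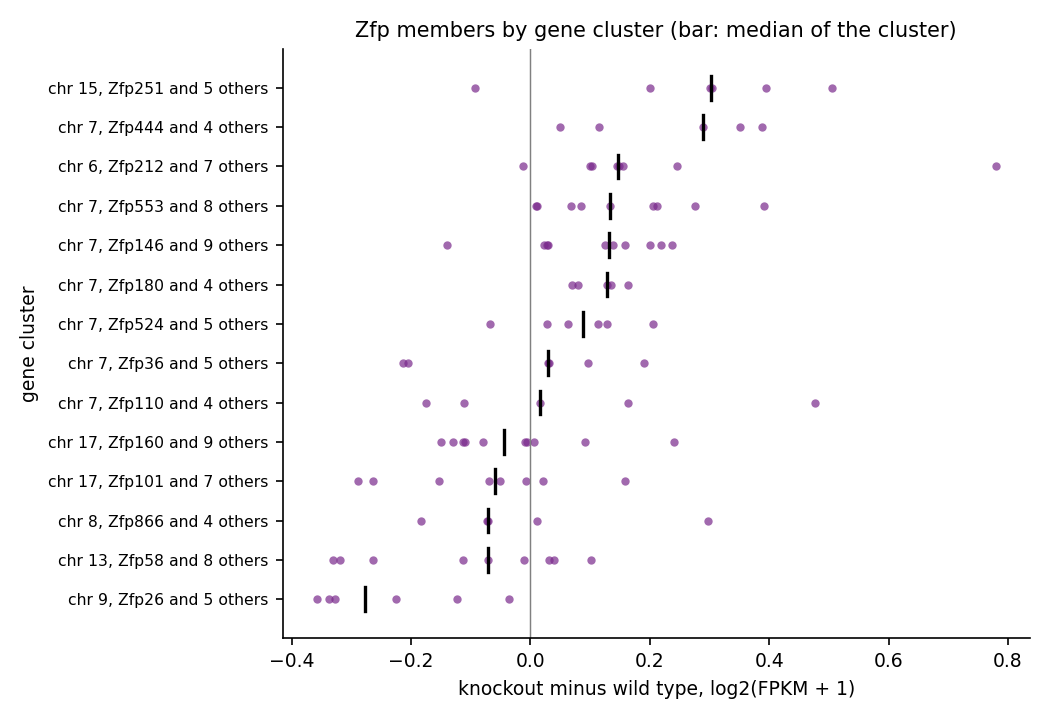
Knockout minus wild-type difference on the log2(FPKM + 1) scale (x axis) for each member of the 14 gene clusters (y axis, named by chromosome and 1 member), with a bar at the median of the cluster. The chromosome 9 cluster has all 6 members below 0, and the medians of the others run from -0.07 to 0.30.

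By library number the members' median difference had opposite signs in the 2 genotypes, though many single members moved the same way in both, as counted below. Within wild type the median log2 difference of library 2 minus library 1 was -0.13 over the members and -0.10 over all genes tested. Within the knockout it was 0.04 over the members and -0.04 over all genes. The median of each member's mean over both genotypes was -0.05, and it was 0.03 after median-centring and after quantile normalization. Wild-type library 2 held the lowest value of 116 of the 229 members, or 50.7%, against 37.1% of all genes tested, and the highest value of 9 members, or 3.93%, against 8.29%. That library also had the lowest summed level of the members, 2121 FPKM against 2257 to 2297 FPKM in the other libraries, and the highest share of Hba-a1, and the part of these in the result was not tested. The members' median change between genotypes was 0.13 with wild-type library 2 alone as the control and -0.03 with wild-type library 1 alone.

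Lower in library 2 in both genotypes were 85 members, or 37.1%, against 46.5% of all genes tested, and higher in library 2 in both were 34, or 14.8%, against 24.0%. Zfp207, given above, was lower in library 2 of both genotypes. So were Zfp706 (16.64 and 12.31 FPKM in wild type, 17.45 and 11.16 in the knockout), Zfp101 (2.94 and 1.59, then 2.55 and 1.61) and Zfp808 (2.14 and 0.95, then 1.58 and 1.05), of whose transcript 46.4% of 50-base stretches are shared with other genes. Higher in library 2 were Zfp467 and Zfp36l1, given above, Zfp362 (14.79 and 17.98, then 15.66 and 21.77) and Zfp710 (4.99 and 6.44, then 6.48 and 8.32). For Zfp36l1 the mean difference by library number was larger than that by genotype, which was 0.01. These differences rest on 1 library per genotype and number and carry no test.

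**Figure D5:**
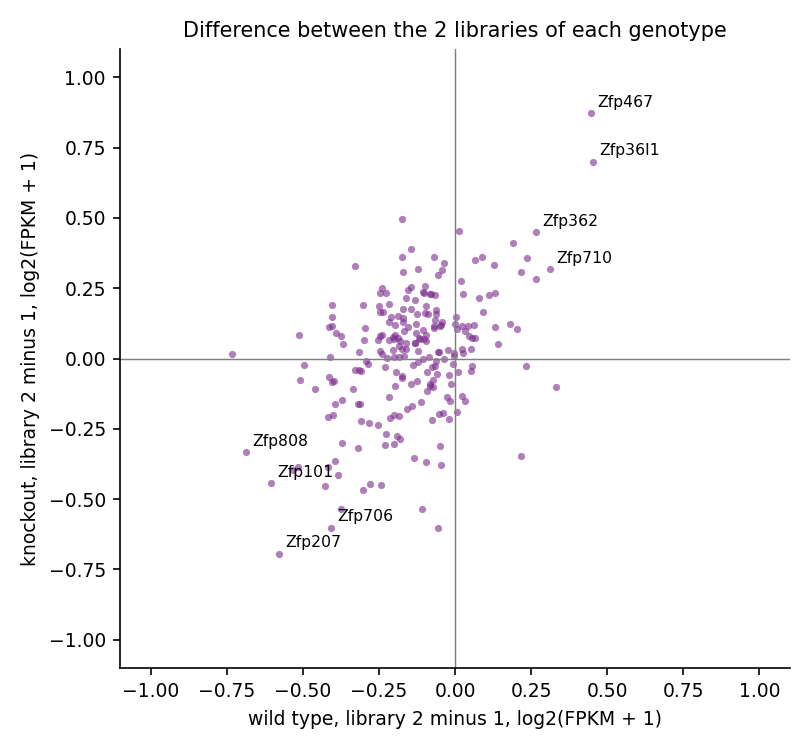
Library 2 minus library 1 on the log2(FPKM + 1) scale within wild type (x axis) and within the knockout (y axis), 1 point per Zfp member. Most points lie left of 0, as the wild-type median of -0.13 gives, and Zfp467 and Zfp36l1 lie highest in both genotypes.

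Similar sequences limit what single members show. In 36 members over 10% of the 50-base stretches of the transcript occur in transcripts of other genes, and in 10 members over 50% do. Those 36 had a median log2 change of 0.03 and an interquartile range of 0.30, against 0.05 and 0.23 in the 192 members with up to 10%. Higher in both knockout libraries were 6 of the 36 (16.7%), and 8 (22.2%) were lower in both. In the 192 these shares were 30.2% and 10.9%, beside 29.9% and 10.8% of all genes tested. The difference between the 2 sets was not tested. Exons of 63 members overlap those of another gene, and their median was 0.03. Fold differences on the log2(FPKM + 1) scale understate the change of low genes, which bears most on the 40 members between 1 and 2 FPKM.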

How the data were processed

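The authors deposited 1 table of 17393 genes and 4 libraries. Its header names no unit, and the deposited values behave as FPKM, since multiplied by transcript length each library gives a like total. Per the submitters' processing notes TopHat2 and mm10 were used, and no version or role is stated. The quantifying program and the strand setting are not given in the sources used here. Transcripts assembled from the reads enter the values of 110 members. Depth is not in the table, so no counting intervals are given.

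Values were converted to log2(FPKM + 1). The 10670 genes that reached 1 FPKM in 2 or more libraries were compared between knockout and wild type with limma 3.58.1 in R 4.3.3 (mean-variance trend, no covariate, Benjamini-Hochberg over all genes, threshold 0.05), a procedure tested on simulated data. Ratios are of group means of FPKM. Tables were made with pandas 2.3.3 and numpy 2.4.6, and figures with matplotlib 3.10.9. The members, lists and alternatives were chosen with earlier results of these data known.

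The text names any member past the threshold, the 8 largest upward and 8 largest downward differences among members whose groups do not overlap, the 6 most abundant, the 4 largest differences by library number in each direction, members of the role lists from 5 FPKM, and the 2 genes on either side of the 1 FPKM rule. Some genes the rule names are not described. Wdr26 and the 4 most abundant corepressors were also named. Zfp142, Zfp266, Zfp330, Zfp426, Zfp568, Zfp617, Zfp783, Zfp839, Zfp846 and Chd3 were named after their values were seen.

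Coordinates are those of the RefSeq table for GRCm38.p6. A protein table was planned for the finger and KRAB patterns, and translated GENCODE M21 coding sequences were used in its place. The KRAB-box pattern was adjusted after sequences, not expression values, had been seen. A C2H2 pattern is a cysteine pair 2 to 4 residues apart, 12 residues, and a histidine pair 3 to 5 residues apart. The alternatives were median-centring, quantile normalization, leaving out globin genes, no filter, a mean of at least 5 FPKM, a pseudocount of 0.1, no trend, the library number as a block, each library left out, other member rules and other KRAB patterns. One list of marker genes is not reported here.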

Additional observations from a re-analysis of the deposited data

How the results depend on the processing

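No member passed the limma adjusted threshold in 12 of 14 alternatives, where the smallest adjusted p of a member lay between 0.175 and 0.9. The exceptions were leaving out knockout library 1, with 4 members (Zfp358, Zfp467, Zfp882 and Zfp207; a single knockout library is then assumed to vary like wild type), and the replicate block. Leaving out each library in turn, members past the threshold ranged from 0 to 4 and all genes past it from 3 to 738, beside 10 with every library. The members' median log2 change then ranged from -0.0266 to 0.126, the KRAB members' median from -0.0925 to 0.117, members higher in both knockout libraries from 72 to 135 and lower in both from 31 to 91, counts that grow because fewer values are compared. With both libraries of each genotype these were 64 and 29. Median-centring gave a members' median of -0.0356, 34 higher and 58 lower, quantile normalization gave 32 and 57, and leaving out globin genes gave 40 higher and 21 of all genes past the threshold. Without the filter 0 of all genes passed (limma; Wdr26 had an adjusted p of 0.0675), and the members' median relative to all genes was 0.0204 in place of -0.0261. With a mean of at least 5 FPKM, 2 of all genes passed, and 39 of the 120 members left were higher and 13 lower. The shares of all genes higher and lower were not counted there or with a library left out. The cause of these shifts was not tested. The 16 largest differences between genotypes among members whose groups do not overlap kept their direction in every fit that held them. This follows largely from the choice, since groups that do not overlap keep their direction whichever library is left out. It is therefore no sign that these differences are robust.

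With the library number as a replicate block, 15 members passed the limma adjusted threshold (10 higher, 5 lower; 6.55%, against 17.5% or 1863 of all genes tested), the smallest p being 1.87e-05 for Zfp467. The labels give the libraries only a shared number, and the block leaves 1 residual degree of freedom. The log2 difference of library 2 minus library 1 correlated between genotypes at 0.606 over all genes and 0.456 over members, points that share their libraries.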
